A study of Mus musculus with 8 samples.

Results

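The collagen chain genes of embryonic mouse skin were followed in RNA sequencing of C57BL/6 embryos whose retinoic acid breakdown had been disturbed. Members were every gene symbol made of Col, a type number, the letter a and a chain number, apart from Col17a1, the hemidesmosomal collagen of keratinocytes. That gave 40 of the 21882 gene symbols in the deposited tables. Cyp26b1-/- whole skin at embryonic day 16.5 (E16.5) was compared with wild-type skin of the same age, each group holding 2 libraries. Separated dermis and epidermis at embryonic day 18.5 (E18.5) gave, per tissue, 1 library labelled En1cre;Cyp26b1f/- and 1 library labelled Cyp26b1f/+ as its control. The dermal and epidermal libraries of a genotype carry different sample numbers, so the labels do not pair them as layers of the same skin. Cyp26b1 encodes a cytochrome P450 enzyme that clears retinoic acid. En1cre removes the floxed allele in the Engrailed 1 lineage, which takes in trunk dermis, and the E18.5 mutant also has 1 functional allele fewer than its control in all other cells. Nothing in the labels ties libraries to separate embryos, so the E16.5 p-values may measure technical spread only.

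Collagens are triple helices of 3 alpha chains. Fibrillar types I, III and V carry the tension of the dermis, FACIT types (fibril-associated collagens with interrupted triple helices) decorate those fibrils, and type VI builds beaded filaments around cells. Type IV forms the network of the basement membrane under the epidermis and around vessels, and type VII forms the anchoring fibrils that tie the epidermal basement membrane to the dermis. Prolyl and lysyl hydroxylases and the chaperone Serpinh1 (HSP47) prepare the chains in the endoplasmic reticulum.

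Levels are in FPKM (fragments per kilobase, adjusted for library size), summed over the transcripts of a symbol, so that levels of different genes are set per length. Differences are given as centred log2 folds, log2((mutant FPKM + 1)/(control FPKM + 1)) less the median over all symbols with at least 1 FPKM in either group. That median was 0.43 in E16.5 skin, 0.12 in dermis and -0.18 in epidermis. Members with at least 1 FPKM in either group numbered 31 in E16.5 skin, 29 in dermis and 24 in epidermis. Col1a1, Col1a2 and Col3a1, the main chains of dermal fibrils, have no value in E16.5 skin or dermis, where the authors' software marked them as too abundant to estimate. All 40 members had a value in epidermis. Read depth is unknown, since FPKM values do not carry it, and both libraries of an E16.5 group were combined in 1 column, so no spread between libraries can be given. Summed Cyp26b1 was 58.2 FPKM in Cyp26b1-/- skin and 35.0 FPKM in wild-type skin, 102 FPKM in mutant and 54.2 FPKM in control dermis, and 13.7 FPKM in mutant and 4.97 FPKM in control epidermis. The labels do not state which exons the alleles lack, so the genotypes were not checked by these values.

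Nuclear receptors for retinoic acid bind variants of the hexamer AGGTCA, usually as repeats, and the promoters of 3 members called at E16.5 are shown for that reason. Of the 7 called members 6 had a window, and 2 of these, Col7a1 and Col23a1, held the hexamer. Both are shown, beside Col8a1 as a member without it, a choice made after the values and matches were seen. Col23a1 was called only relative to the median transcript and not when centred within deciles of GC content. Each line holds the 250 bases before the gene's start as annotated by RefSeq in build GRCm38.p6, read 5′ to 3′ on the gene's strand, with AGGTCA or its reverse complement TGACCT in capitals.
Col8a1: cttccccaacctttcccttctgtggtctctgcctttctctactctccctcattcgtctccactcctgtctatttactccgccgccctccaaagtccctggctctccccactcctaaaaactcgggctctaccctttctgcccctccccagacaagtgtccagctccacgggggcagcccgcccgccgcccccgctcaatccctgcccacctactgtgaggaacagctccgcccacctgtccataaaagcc
Col7a1: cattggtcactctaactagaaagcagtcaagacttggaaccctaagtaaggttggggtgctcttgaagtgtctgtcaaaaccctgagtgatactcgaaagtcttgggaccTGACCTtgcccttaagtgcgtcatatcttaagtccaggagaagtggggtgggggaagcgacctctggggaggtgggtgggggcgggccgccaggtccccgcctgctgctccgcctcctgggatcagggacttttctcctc
Col23a1: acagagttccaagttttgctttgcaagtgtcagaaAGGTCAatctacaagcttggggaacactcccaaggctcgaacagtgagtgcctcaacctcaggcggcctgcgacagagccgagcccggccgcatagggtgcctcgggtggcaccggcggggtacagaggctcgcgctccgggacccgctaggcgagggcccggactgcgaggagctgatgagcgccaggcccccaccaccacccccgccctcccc
The Col8a1 stretch is chr16:57754738-57754987 on the minus strand and holds no copy of the hexamer. The Col7a1 stretch is chr9:108953336-108953585 on the plus strand, with TGACCT starting 140 bases before the gene's start. The Col23a1 stretch is chr11:51289670-51289919 on the plus strand, with AGGTCA starting 215 bases before the start. None of the 3 windows overlapped an annotated exon in mm9. Of the 40 members, 32 had such a window, and 7 of these (21.9%) held the hexamer on either strand: Col4a4, Col7a1, Col9a1, Col11a1, Col20a1, Col23a1 and Col24a1. Over all 32851 windows of the same length the share was 14%. A member counted once if any of its windows held the match, while the share over all is of single windows. The GC-rich motif GGGCGG was found on either strand in 20 members (62.5%), against 32.7% of all windows. CCAAT was in 12 members (37.5%), against 33.8% of all windows, and TATAAA in 4 members (12.5%), against 12.4% of all windows. These are matches of letters and show no binding.

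In E16.5 Cyp26b1-/- skin, 2 collagen genes rose and 5 fell relative to the median transcript. Col2a1, the chain of cartilage and vitreous collagen, and Col8a1, a short-chain collagen of vessel walls and of the corneal Descemet membrane, rose. Col7a1, the anchoring fibril chain, Col16a1, a FACIT chain found near the dermal-epidermal junction, Col18a1, the basement membrane multiplexin that carries endostatin, and the transmembrane collagens Col13a1 and Col23a1 fell, although the FPKM of Col18a1 and Col23a1 was not itself lower in mutant skin. Of all 16263 tested symbols, 8.09% rose and 10.1% fell by the same rule, so the shares among the 34 tested members lie close to this background. A symbol rose or fell when the authors' Cuffdiff statistic, recentred on the median deposited log2 fold of 0.48, gave a Benjamini-Hochberg adjusted p under 0.05 for at least 1 transcript and none changed the other way. By the authors' deposited q-values, without recentring, 17 members were higher and 0 lower, against 54.7% higher and 3.44% lower among all tested symbols.

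Col8a1 had 26.6 FPKM in Cyp26b1-/- skin and 13.4 FPKM in wild-type skin. In the authors' deposited table its log2 fold was 0.99, which lay 0.51 above the median with an SE of 0.14 implied by the test statistic (recentred Cuffdiff statistic, adjusted p = 0.00277). Its partner Col8a2, the other chain of type VIII collagen, had 9.42 FPKM in mutant skin and 7.61 FPKM in wild-type skin and did not pass. The 8 endothelial markers summed to 291 FPKM in mutant skin and 223 FPKM in wild-type skin. By the recentred Cuffdiff statistic 0 of 8 passed in either direction. By the authors' deposited q-values 5 of 8 were higher, against 54.7% of all tested symbols.

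Col2a1 had 9.08 FPKM in Cyp26b1-/- skin and 4.76 FPKM in wild-type skin. The difference sat in 1 of its 2 transcripts. NM_001113515 was at 7.47 FPKM in mutant skin and 3.16 FPKM in wild-type skin, 0.76 above the median deposited log2 fold (SE 0.18, adjusted p = 0.000539 from the authors' statistic after recentring). NM_031163 was at 1.61 FPKM in mutant skin and 1.60 FPKM in wild-type skin. The other collagens typical of cartilage did not pass: Col9a1 had 9.44 FPKM in mutant and 6.51 FPKM in wild-type skin, Col9a2 had 6.36 FPKM in mutant and 3.80 FPKM in wild-type skin, and Col11a2 had 4.14 FPKM in mutant and 2.52 FPKM in wild-type skin. Sox9, the transcription factor that switches on Col2a1 in cartilage, had 14.5 FPKM in mutant skin and 6.97 FPKM in wild-type skin. Cartilage markers summed to 25.2 FPKM in mutant skin and 14.3 FPKM in wild-type skin, with 2 of 9 rising and 1 falling and none at 0. Of all tested symbols 8.09% rose and 10.1% fell. The 6 retina markers summed to 14.4 FPKM in mutant skin and 0.57 FPKM in wild-type skin, with 5 of the 5 tested rising. The 10 lens markers summed to 1513 FPKM in mutant skin and 67 FPKM in wild-type skin, with 9 rising, and the 8 bone markers to 212 FPKM in mutant and 74.5 FPKM in wild-type skin, with 2 rising and 2 falling. The part of cartilage, retina, lens or bone tissue in the Col2a1 and Col8a1 values was not tested.

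Col7a1 had 61.2 FPKM in Cyp26b1-/- skin and 73.2 FPKM in wild-type skin, 0.74 below the median deposited log2 fold (SE 0.17, adjusted p = 0.00017 from the authors' statistic after recentring). Col16a1 had 64.0 FPKM in mutant skin and 74.8 FPKM in wild-type skin, 0.70 below it (SE 0.15, adjusted p = 6.02e-05 from the authors' recentred statistic). These 2 and Col13a1, with 1.92 FPKM in mutant skin and 2.36 FPKM in wild-type skin (adjusted p = 0.034 from the authors' recentred statistic), were lower in mutant skin also before recentring. Col18a1 and Col23a1 fell only relative to the median. Col23a1 had 21.0 FPKM in mutant skin and 20.6 FPKM in wild-type skin (adjusted p = 0.00996 from the authors' recentred statistic). Summed Col18a1 was 68.8 FPKM in mutant skin and 60.2 FPKM in wild-type skin, and its fall rests on transcript NM_009929, at 33.9 FPKM in mutant skin and 35.6 FPKM in wild-type skin (adjusted p = 0.00126 from the authors' recentred statistic). Its other transcript, NM_001109991, was at 34.9 FPKM in mutant and 24.6 FPKM in wild-type skin, which the authors' deposited table calls higher. Without recentring, the log2 folds of Col18a1 and Col23a1 were 0.19 and 0.03. Cell type markers were read beside these falls. Of 10 fibroblast markers 5 fell and 0 rose, against 10.1% and 8.09% of all tested symbols. Their sum was 3480 FPKM in mutant skin and 3120 FPKM in wild-type skin. Among the 5, Thy1 had 84.6 FPKM in mutant skin and 106 FPKM in wild-type skin. The summed FPKM of the others, Pdgfra, Pdgfrb, Twist2 and Prrx1, was higher in mutant skin. By the authors' deposited q-values, without recentring, 3 of the 10 were higher and 1 lower, against 54.7% and 3.44% of all tested symbols. Of 7 keratinocyte markers with a value 1 rose (Cdh1) and 1 fell (Krt14, at 426 FPKM in mutant and 734 FPKM in wild-type skin), and they summed to 4798 FPKM in mutant and 4559 FPKM in wild-type skin. Of 7 adipocyte markers with a value 4 fell and 0 rose, and they summed to 981 FPKM in mutant and 1068 FPKM in wild-type skin. None of these markers was at 0, and their part in the falls was not tested.

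Which members fell depended on whether the centring took account of GC content. Members at 1 FPKM had a median transcript GC content of 56.7%, against 50.7% over all symbols, and log2 folds at E16.5 were lower in GC-rich symbols (median fold -0.21 in the highest GC decile). GC content was taken per symbol, from its longest GENCODE protein-coding transcript. In an alternative chosen after seeing the data, each transcript was instead centred on the median of its symbol's decile of GC content. Col2a1 and Col8a1 then still rose, and Col7a1 and Col16a1 still fell. With the authors' statistic so recentred, the adjusted p was 0.0182 for Col7a1, 0.0137 for Col16a1, 0.19 for Col13a1 and 0.0748 for Col23a1, so Col13a1 and Col23a1 did not pass, nor did either Col18a1 transcript.

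The abundant dermal collagens did not pass the test at E16.5. Col6a2 and Col6a1, the most abundant measured chains, had 784 and 709 FPKM in Cyp26b1-/- skin, against 678 and 594 FPKM in wild-type skin. Col5a1, which starts and limits fibrils together with Col5a2, had 325 FPKM in mutant skin and 331 FPKM in wild-type skin, and Col5a2 had 238 FPKM in mutant and 202 FPKM in wild-type skin. Col4a1 and Col4a2, the ubiquitous type IV chains, had 236 and 139 FPKM in mutant skin, against 232 and 132 FPKM in wild-type skin. Col14a1 and Col12a1, FACIT chains on type I fibrils, had 84.8 and 75.6 FPKM in mutant skin, against 61.3 and 60.6 FPKM in wild-type skin. Col4a5, a chain of epithelial basement membranes, had 13.8 FPKM in mutant skin and 8.81 FPKM in wild-type skin, 0.17 above the median symbol. The other members at 1 FPKM, Col4a6, Col5a3, Col6a6, Col9a3, Col11a1, Col15a1 and Col20a1 among them, lay between 0.30 below and 0.15 above it and did not pass. Over the 31 members the centred log2 fold ranged between -0.68 and 0.51 with a median of -0.10, 9 lay above the median symbol and 22 below, and 0 were past 2-fold, against 1.67% of all symbols higher and 2.85% lower. The quartiles of all symbols were -0.20 and 0.17.

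**Figure D1:**
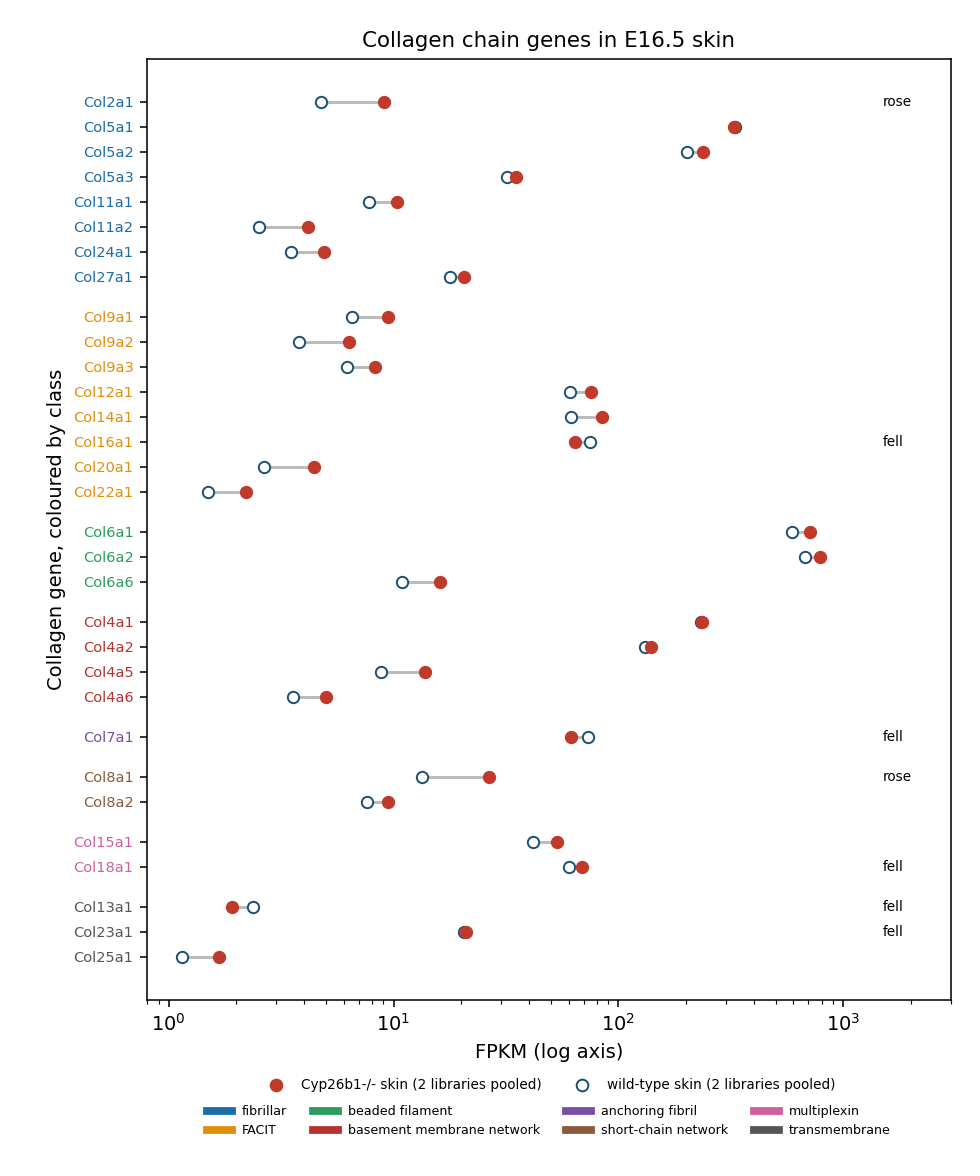
FPKM of the 31 collagen genes with at least 1 FPKM at E16.5 (log axis), grouped by class, with filled points for Cyp26b1-/- skin and open points for wild-type skin, each 2 pooled libraries. Rose and fell mark genes called relative to the median transcript, so Col18a1 and Col23a1 are marked as fallen although their FPKM was not lower; Col4a1, Col4a2, Col5a1, Col5a2, Col6a1 and Col6a2 lie at 132 FPKM or more in both groups.

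In E18.5 En1cre;Cyp26b1f/- dermis, the type V and VI chains and several FACIT chains were higher than the median symbol, most by less than 2-fold. The anchoring fibril chain Col7a1, the multiplexin Col18a1 and the cartilage-type chains Col9a2 and Col11a2 were lower, but higher when centred within deciles of GC content. Past 2-fold relative to the median symbol were Col6a6, a type VI chain, and Col12a1 on the higher side and Col9a3, a chain of the cartilage FACIT type IX, on the lower side. These are 2 and 1 of 29 members, against 14% and 13.9% of all 13398 symbols. Centred within deciles of GC content, Col12a1 (0.66) and Col9a3 (-0.58) were no longer past 2-fold, and with a pseudocount of 5 neither was Col6a6 or Col12a1. With 1 library in each group there is no replicate check and no p-value.

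Col6a1 had 1182 FPKM in En1cre;Cyp26b1f/- dermis and 568 FPKM in Cyp26b1f/+ dermis, and Col6a2 had 1446 FPKM in mutant and 1014 FPKM in control dermis. Col6a6 had 10.8 FPKM in mutant dermis and 3.13 FPKM in control dermis. The 3 type VI members with at least 1 FPKM there were thus all higher in the mutant library. The 3 type V chains were higher too: Col5a1 had 840 FPKM in mutant and 540 FPKM in control dermis, Col5a2 had 306 FPKM in mutant and 184 FPKM in control dermis, and Col5a3 had 129 FPKM in mutant and 74.6 FPKM in control dermis. Among FACIT chains, Col12a1 had 39.2 FPKM in mutant dermis and 16.5 FPKM in control dermis, and Col14a1 had 80.5 FPKM in mutant and 50.6 FPKM in control dermis. Col9a3 had 7.64 FPKM in mutant dermis and 20.7 FPKM in control dermis, while Col9a1 of the same type had 3.49 FPKM in mutant and 1.14 FPKM in control dermis. The 3 type IX genes therefore did not move together, with Col9a2 at 5.21 FPKM in mutant dermis and 6.37 FPKM in control dermis.

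Col7a1 had 219 FPKM in mutant dermis and 290 FPKM in control dermis. Col18a1 had 120 FPKM in mutant and 171 FPKM in control dermis, and Col16a1 had 216 FPKM in mutant and 268 FPKM in control dermis. By summed FPKM these 3 genes, whose products lie at or near basement membranes, were below the median symbol here and at E16.5. When centred within deciles of GC content they were above it in dermis. For Col18a1 the transcript behind the lower value differed between stages. In dermis NM_001109991 was at 27.1 FPKM in mutant and 68.5 FPKM in control, and NM_009929 at 93.1 FPKM in mutant and 102 FPKM in control. At E16.5 the fall rested on NM_009929, and NM_001109991 was higher in mutant skin. Col4a1 had 452 FPKM in mutant dermis and 411 FPKM in control dermis, and Col4a2 had 316 FPKM in mutant and 323 FPKM in control dermis. The type IV chains of the epithelial basement membrane were lower by summed FPKM. Col4a5 was at 5.80 FPKM in mutant and 8.16 FPKM in control dermis, and Col4a6 at 2.68 FPKM in mutant and 4.20 FPKM in control dermis. The 2 Col4a5 transcripts went opposite ways. NM_007736 was at 3.21 FPKM in mutant and 6.25 FPKM in control dermis, and NM_001163155 at 2.59 FPKM in mutant and 1.91 FPKM in control dermis. Col13a1, a collagen of cell adhesion sites, had 7.22 FPKM in mutant dermis and 12.8 FPKM in control dermis, and Col11a2 had 3.71 FPKM in mutant and 6.05 FPKM in control dermis. Col23a1 had 33.2 FPKM in mutant dermis and 25.0 FPKM in control dermis, and Col20a1 had 6.53 FPKM in mutant and 3.74 FPKM in control dermis, both above the median symbol. Col8a1, which rose at E16.5, had 5.11 FPKM in mutant dermis and 4.40 FPKM in control dermis, and Col2a1 had 0.23 FPKM in mutant and 1.12 FPKM in control dermis. Over the 29 members the median centred log2 fold was -0.25, beside quartiles of all symbols of -0.63 and 0.63. Centring within deciles of GC content moved the member median to 0.38, counted 5 members past 2-fold higher (Col5a1, Col5a3, Col6a1, Col6a6 and Col20a1) and 0 lower, against 10.7% and 11.2% of all symbols so centred, and turned the sign of 9 members, among them Col4a2, Col7a1, Col16a1 and Col18a1. The directions of those 9 in dermis therefore depend on the centring, while the type V and VI chains were higher under both.

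The dermal libraries differed in makeup by their markers. The 10 keratinocyte markers summed to 4904 FPKM in mutant dermis and 15888 FPKM in control dermis, with 8 past 2-fold lower, and Col17a1, left out of the members, had 76.6 FPKM in mutant dermis and 261 FPKM in control dermis. Krt5, a keratin of basal keratinocytes, had 1806 FPKM in mutant dermis and 6265 FPKM in control dermis, so both libraries labelled dermis held keratinocyte RNA. Skeletal muscle markers summed to 6440 FPKM in mutant dermis and 1740 FPKM in control dermis, with 8 of 10 past 2-fold higher. Fibroblast markers summed to 3353 FPKM in mutant and 2236 FPKM in control dermis, with 4 of 10 past 2-fold higher, and endothelial markers to 334 FPKM in mutant and 223 FPKM in control dermis, with 6 of 8. Of 7 adipocyte markers at 1 FPKM 2 were past 2-fold higher and 3 lower. Of all symbols in dermis 14% were past 2-fold higher and 13.9% lower. Cfd had 0.66 FPKM in mutant dermis and 61.9 FPKM in control dermis, Plin1 had 5.28 FPKM in mutant and 95.7 FPKM in control dermis, and Adipoq had 3.50 FPKM in mutant and 59.5 FPKM in control dermis, while Fabp4 had 317 FPKM in mutant and 73.2 FPKM in control dermis. None of these markers was at 0 in the mutant library. In bulk tissue fewer cells of a type and less RNA per cell cannot be told apart, and the part of the makeup in the collagen values was not tested.

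In E18.5 En1cre;Cyp26b1f/- epidermis, most collagen chains were lower. Past 2-fold lower relative to the median symbol were 11 of 24 members: Col1a1, Col1a2, Col3a1, Col4a1, Col4a2, Col5a1, Col5a2, Col6a1, Col6a2, Col15a1 and Col16a1. Past 2-fold higher were 2, Col11a2 and Col20a1. Of these members, Col5a2 and Col15a1 reached 1 FPKM in control epidermis only, and Col11a2 in mutant epidermis only. Of all 11362 symbols 4.86% were past 2-fold lower and 3.49% higher. The FPKM of all 40 members summed to 117 in mutant epidermis and 464 in control epidermis. No p-value can be given with 1 library in each group, and the count past 2-fold lower was 18 with a pseudocount of 0.1 and 5 with a pseudocount of 5. Centring within deciles of GC content left 11 members past 2-fold lower and turned no sign.

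Col1a1 had 27.7 FPKM in En1cre;Cyp26b1f/- epidermis and 149 FPKM in Cyp26b1f/+ epidermis. Col1a2, its partner in the type I helix, had 15.1 FPKM in mutant and 80.3 FPKM in control epidermis, and Col3a1 had 15.7 FPKM in mutant and 84.7 FPKM in control epidermis. These 3 fibrillar genes, each in a single library per group, were 5.37, 5.31 and 5.40 times as high in control as in mutant epidermis. Col6a2 had 4.92 FPKM in mutant epidermis and 26.1 FPKM in control epidermis, Col6a1 had 4.10 FPKM in mutant and 19.7 FPKM in control epidermis, and Col5a1 had 2.71 FPKM in mutant and 11.3 FPKM in control epidermis. Col4a1 had 3.22 FPKM in mutant epidermis and 12.7 FPKM in control epidermis, and Col4a2 had 1.89 FPKM in mutant and 7.80 FPKM in control epidermis. Col16a1 had 1.86 FPKM in mutant and 8.16 FPKM in control epidermis, and Col15a1, a multiplexin of vessel and muscle basement membranes, 0.26 FPKM in mutant and 2.05 FPKM in control epidermis.

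Col7a1, Col18a1, Col4a5 and Col4a6 were not past 2-fold on the centred scale. Col7a1, which keratinocytes make as well as fibroblasts, had 12.0 FPKM in mutant epidermis and 21.2 FPKM in control epidermis. Col18a1 had 10.6 FPKM in mutant and 14.6 FPKM in control epidermis, and Col4a5, which with Col4a6 forms an epithelial type IV network, had 3.62 FPKM in mutant and 4.25 FPKM in control epidermis. Col4a6 had 0.86 FPKM in mutant and 2.04 FPKM in control epidermis. On the higher side, Col20a1, a little-studied FACIT, had 5.64 FPKM in mutant epidermis and 1.65 FPKM in control epidermis, and Col11a2, a minor fibrillar chain, had 2.59 FPKM in mutant and 0.99 FPKM in control epidermis. Col5a2 had 0.76 FPKM in mutant epidermis and 5.30 FPKM in control epidermis. The other members at 1 FPKM, Col5a3, Col8a1, Col9a3, Col12a1, Col14a1, Col23a1 and Col27a1, had centred log2 folds between -0.91 and -0.48. Their FPKM was between 2.52 (Col27a1) and 6 (Col5a3) times as high in control as in mutant epidermis. At such low levels the added 1 FPKM shrinks the fold. Over the 24 members the median centred log2 fold was -0.87, with 22 below the median symbol and 2 above it. Some members reached 1 FPKM in control epidermis only: Col4a6, Col5a2, Col5a3, Col8a1, Col9a3, Col12a1, Col14a1, Col15a1, Col23a1 and Col27a1. Col11a2 did so in mutant epidermis only. The direction of these members follows in part from the filter, which is met by either group. The quartiles of all symbols were -0.36 and 0.34.

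Fibroblast markers moved in the same direction. Summed over 10 markers they were at 27.8 FPKM in mutant epidermis and 129 FPKM in control epidermis. All 6 with at least 1 FPKM were past 2-fold lower, against 4.86% of all symbols in epidermis. Twist2, a transcription factor of dermal fibroblasts, had 1.39 FPKM in mutant epidermis and 5.34 FPKM in control epidermis. Among keratinocyte markers, 3 of 8 were past 2-fold lower, with Krt5 at 704 FPKM in mutant epidermis and 2634 FPKM in control epidermis. Krt14 had 322 FPKM in mutant and 1496 FPKM in control epidermis, while Dsp had 495 FPKM in mutant and 589 FPKM in control epidermis and Perp 1603 FPKM in mutant and 1498 FPKM in control epidermis. Skeletal muscle markers summed to 45 FPKM in mutant epidermis and 88.4 FPKM in control epidermis, with 5 of 8 at 1 FPKM past 2-fold lower. Endothelial markers summed to 1.16 FPKM in mutant and 4.51 FPKM in control epidermis, and adipocyte markers to 1.73 FPKM in mutant and 7.22 FPKM in control. Schwann cell markers summed to 80.8 FPKM in mutant and 71 FPKM in control epidermis. No fibroblast marker was at 0 in either library, and the part of fibroblast RNA in the collagen values was not tested.

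**Figure D2:**
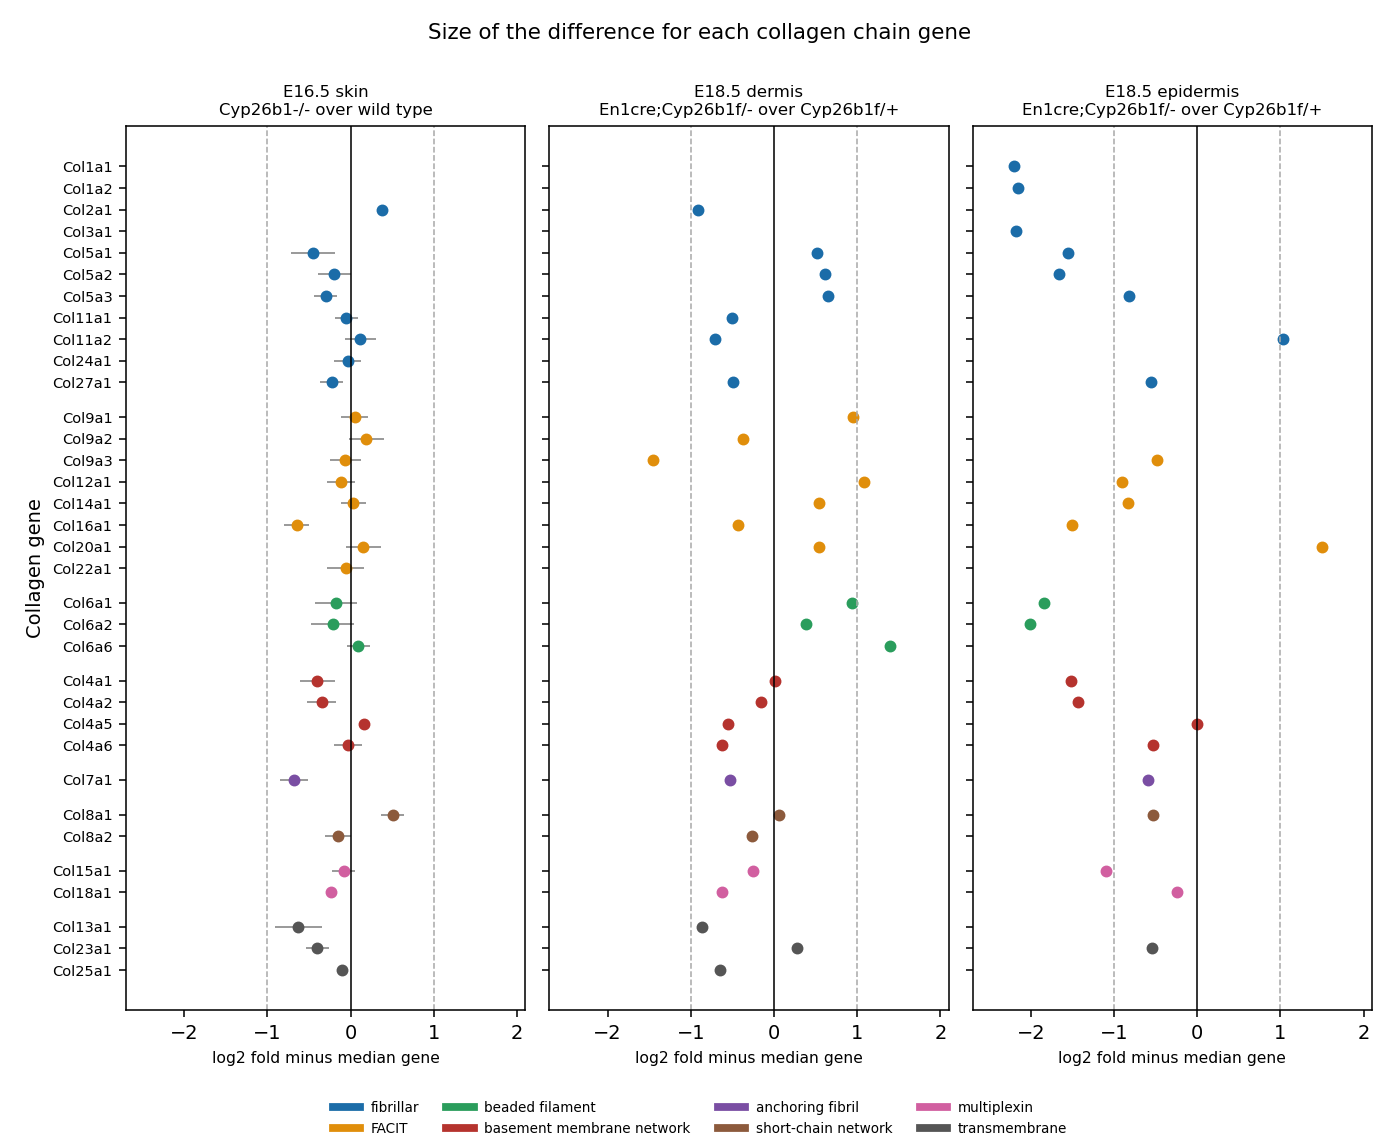
Centred log2 fold of each collagen gene (mutant over control, minus the median symbol) in E16.5 skin, E18.5 dermis and E18.5 epidermis, for members with at least 1 FPKM in either group; dashed lines mark 2-fold and grey bars at E16.5 the SE implied by the deposited statistic for genes with 1 tested transcript. The E16.5 points lie between -0.68 and 0.51, the dermal points on both sides of 0, and 22 of 24 epidermal points below 0.

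The 2 E18.5 tissues were then set beside each other, with the limit that their tables were normalised separately. The libraries also carry different sample numbers, mutant 7 in dermis and 9 in epidermis, control 1 in dermis and 6 in epidermis. Each percentage below thus sets 1 library against 1 other, not known to come from the same embryo. For the 27 members that had a value in both tissues and at least 1 FPKM in both dermal libraries, the epidermal FPKM was a median 0.71% of the dermal FPKM in mutants and 4.38% in controls. It was under 5% for 20 members in mutants and for 17 in controls. The fibroblast markers had medians of 0.47% in mutants and 5.21% in controls, and the keratinocyte markers 138% in mutants and 107% in controls. The filter asks for at least 1 FPKM in dermis but sets no limit in epidermis, which favours low percentages. The same filter held for the markers. Most of the 27 collagens lay among the fibroblast markers in both genotypes. Apart from them stood Col20a1 at 86.4% in mutants and 44.1% in controls, Col11a2 at 69.8% in mutants and 16.4% in controls, Col4a5 at 62.4% in mutants and 52.1% in controls, and Col4a6 at 32.1% in mutants and 48.6% in controls. Col8a1, at 4.70% in mutants and 23.4% in controls, was also above every fibroblast marker, the highest of which was at 2.03% in mutants and 12.3% in controls. Col18a1 was at 8.83% in mutants and 8.54% in controls, and Col7a1 at 5.48% in mutants and 7.32% in controls. Krt5 was at 39.0% in mutants and 42.0% in controls, so this basal keratin was higher in the libraries labelled dermis than in those labelled epidermis.

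**Figure D3:**
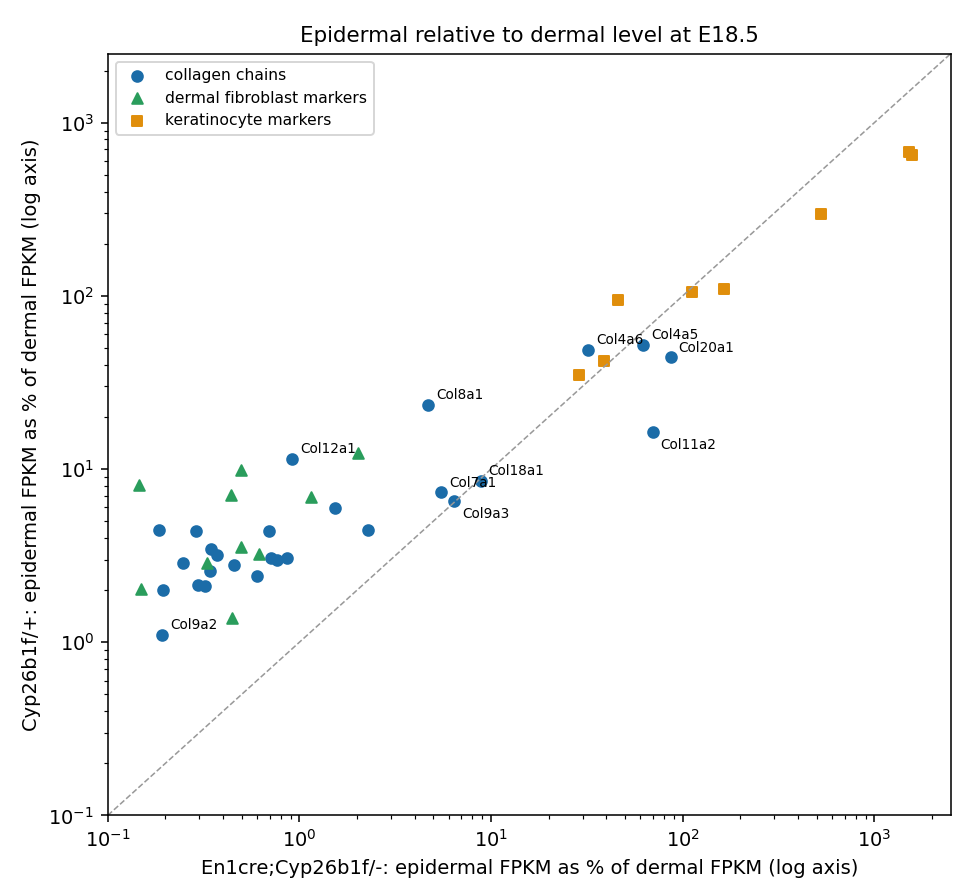
Epidermal FPKM as a percentage of dermal FPKM at E18.5 in En1cre;Cyp26b1f/- (x axis) and Cyp26b1f/+ (y axis), both log axes. Points are 27 collagen genes, 10 dermal fibroblast markers and 8 keratinocyte markers with at least 1 FPKM in both dermal libraries. This filter favours low percentages. The dashed line marks equal percentages. Most collagens lie with the fibroblast markers above the line, Col4a5, Col4a6 and Col20a1 lie near the lower keratinocyte markers, and Col8a1 and Col11a2 lie above all fibroblast markers on both axes and below all keratinocyte markers on the y axis.

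Chains of the same collagen type were compared by the ratio of their FPKM within each column. Col1a1 over Col1a2 was 1.84 in mutant epidermis and 1.85 in control epidermis, both chains being lower in mutants by about the same factor. Col4a1 and Col4a2 lie head to head on chromosome 8 (mm9 chr8:11198423-11312826 and chr8:11312829-11449287) with 2 bases between their annotated loci, and counting by strand is not stated. Their ratio was 1.70 in mutant and 1.76 in wild-type skin, 1.43 in mutant and 1.27 in control dermis, and 1.70 in mutant and 1.62 in control epidermis. Col4a5 over Col4a6, neighbours on chromosome X with 1342 bases between them, was 2.76 in mutant and 2.47 in wild-type skin, 2.16 in mutant and 1.94 in control dermis, and 4.21 in mutant and 2.08 in control epidermis. Col5a1 over Col5a2 was 1.37 in mutant and 1.64 in wild-type skin, 2.74 in mutant and 2.93 in control dermis, and 3.57 in mutant and 2.14 in control epidermis. In mutant epidermis Col4a6 and Col5a2 were under 1 FPKM. Col6a1 over Col6a2 was 0.904 in mutant and 0.876 in wild-type skin, 0.82 in mutant and 0.56 in control dermis, and 0.833 in mutant and 0.757 in control epidermis. Col9a3 over Col9a2 was 1.3 in mutant and 1.64 in wild-type skin, and 1.47 in mutant and 3.24 in control dermis. Col11a1 over Col11a2 was 2.50 in mutant and 3.07 in wild-type skin, and 1.06 in mutant and 0.891 in control dermis. No error can be given for these ratios.

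Many enzymes and chaperones of collagen synthesis were higher in mutant dermis. Of 21 modification and folding genes at 1 FPKM there, 9 were past 2-fold higher and 0 lower, with a list median of 0.78, beside 14% and 13.9% of all symbols. Centred within deciles of GC content, the list median was 1.08, with 12 past 2-fold higher and 0 lower. P4ha1 and P4ha2, catalytic subunits of the main prolyl hydroxylase, had 55.6 and 187 FPKM in mutant dermis, against 12.2 and 36.8 FPKM in control dermis. Fkbp14, a prolyl isomerase of the endoplasmic reticulum, had 24.2 FPKM in mutant dermis and 3.01 FPKM in control dermis, and Lepre1, a prolyl 3-hydroxylase, had 129 FPKM in mutant and 45.3 FPKM in control dermis. Of 13 procollagen processing and crosslinking genes 2 were past 2-fold higher and 0 lower, and Sparc, a collagen-binding glycoprotein, had 4267 FPKM in mutant dermis and 683 FPKM in control dermis. Among fibril partners 7 of 13 were past 2-fold higher and 1 lower, with Dpt (dermatopontin) at 414 FPKM in mutant and 48.6 FPKM in control dermis and Dcn (decorin) at 358 FPKM in mutant and 53.8 FPKM in control dermis.

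Among genes of collagen breakdown 5 of 9 were past 2-fold higher and 0 lower, beside 14% and 13.9% of all symbols in dermis. Ctsk, the collagen-cleaving cathepsin K, had 124 FPKM in mutant dermis and 6.91 FPKM in control dermis, and Mmp2, a gelatinase, had 288 FPKM in mutant and 79.6 FPKM in control dermis. Of 7 collagen receptor genes 2 were past 2-fold higher and 1 lower. Itgb1, the beta chain of collagen-binding integrins, had 78.8 FPKM in mutant dermis and 24.6 FPKM in control dermis, and Ddr1, a receptor kinase of epithelia, had 38.7 FPKM in mutant and 139 FPKM in control dermis. Of 17 basement membrane partners 2 were past 2-fold higher and 2 lower, close to the shares of all symbols. Lama2, a laminin chain of muscle and nerve, had 15.7 FPKM in mutant dermis and 3.99 FPKM in control dermis, and Lamb3, a chain of the laminin that holds keratinocytes to their basement membrane, had 31.6 FPKM in mutant and 89.9 FPKM in control dermis. The muscle and fibroblast marker sums given above were higher in mutant dermis, and the keratinocyte marker sum was lower. Their part in the values of these genes was not tested.

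In mutant epidermis the companion lists lay at or below the median symbol. Of 17 modification and folding genes, 1 was past 2-fold higher and 3 lower, with a median of 0.01, beside 3.49% and 4.86% of all symbols. Centred within deciles of GC content, the median was -0.04, with 0 past 2-fold higher and 3 lower. Serpinh1, the collagen chaperone, had 8.66 FPKM in mutant epidermis and 36.1 FPKM in control epidermis, and P4hb, a disulfide isomerase with many substrates besides collagen, had 425 FPKM in mutant and 235 FPKM in control epidermis. Of 14 basement membrane partners 8 were past 2-fold lower and 0 higher, with Lamc1 at 1.40 FPKM in mutant and 6.55 FPKM in control epidermis. Fibril partners were past 2-fold lower in 7 of 10, processing and crosslinking genes in 2 of 7, receptors in 2 of 3 and breakdown genes in 2 of 5, each with 0 past 2-fold higher. Bgn (biglycan) had 1.83 FPKM in mutant epidermis and 11.2 FPKM in control epidermis, and Mmp14, a membrane-bound collagenase, had 4.44 FPKM in mutant and 19.8 FPKM in control epidermis.

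**Figure D4:**
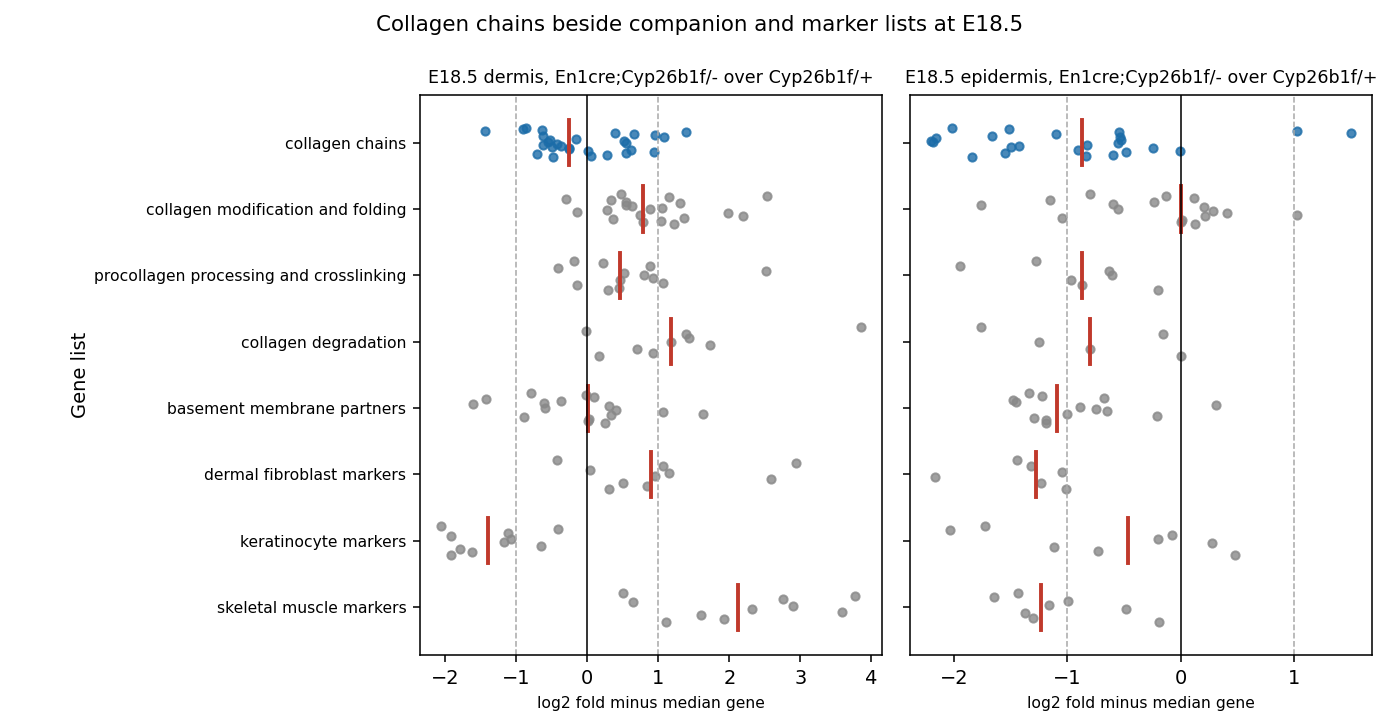
Centred log2 folds (En1cre;Cyp26b1f/- over Cyp26b1f/+, minus the median symbol) in E18.5 dermis and epidermis for collagen chains and for lists of companion and marker genes at 1 FPKM; points are genes, red bars list medians and dashed lines 2-fold. In dermis the modification list (median 0.78) and muscle markers (median 2.13) lie above 0 and keratinocyte markers below it (median -1.40); in epidermis collagens (median -0.87) and fibroblast markers (median -1.27) lie below 0.

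At E16.5 the companion lists were read against 8.09% of all tested symbols that rose and 10.1% that fell. Of 21 modification and folding genes, 2 rose and 4 fell, and Leprel1, a prolyl 3-hydroxylase of type IV collagen, had 18.4 FPKM in Cyp26b1-/- skin and 8.11 FPKM in wild-type skin. Of 15 processing and crosslinking genes, 0 rose and 6 fell, among them the procollagen peptidase Adamts14 with 17.1 FPKM in mutant and 18.2 FPKM in wild-type skin. Of 12 breakdown genes 1 rose and 1 fell, and Fap, a protease of activated fibroblasts, rose to 45.0 FPKM in mutant skin, against 17.5 FPKM in wild-type skin. Of 18 basement membrane partners, 1 rose and 5 fell, including Lamb3 with 13.0 FPKM in mutant skin and 19.8 FPKM in wild-type skin. Receptors changed in 0 of 8 in either direction by the recentred statistic, with 7 of 8 higher by the authors' deposited q-values, and fibril partners rose in 0 and fell in 1 of 12. By the authors' deposited q-values, without recentring, 12 of 21 modification, 5 of 15 processing and 3 of 12 breakdown genes were higher. So were 4 of 18 basement membrane partners and 7 of 12 fibril partners. Lower were 2 basement membrane partners and 0 genes of the other lists. Among all tested symbols 54.7% were higher and 3.44% lower by these q-values.

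Several members were low. Col4a3, Col4a4, Col6a4, Col10a1, Col19a1 and Col28a1 stayed under 1 FPKM in all 3 comparisons. Col22a1 reached 2.21 FPKM in mutant and 1.49 FPKM in wild-type skin at E16.5 and stayed under 1 FPKM at E18.5, and Col24a1 had 4.90 FPKM in mutant and 3.49 FPKM in wild-type skin. Col4a4 at 0.21 FPKM in mutant and 0.08 FPKM in wild-type skin was called higher in the authors' deposited table but did not pass after recentring. Col25a1, a transmembrane collagen of neurons and muscle, had 1.68 FPKM in mutant and 1.14 FPKM in wild-type skin. Col27a1, a fibrillar chain outside this low range, had 20.6 FPKM in mutant and 17.8 FPKM in wild-type skin.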

How the data were processed

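The submitters' processing notes name build mm9 and the tools Cuffdiff 1.3.0, Cufflinks, Bowtie 0.12.7.0 and TopHat 1.3.2, without roles or settings, and strand handling is not given in the sources used here. Per the file headers, the 3 deposited tables give 27641 RefSeq transcripts with the FPKM of both groups, the log2 fold and its statistic, p-value and q-value. The test statistic is a score deposited by the authors, from which the SE was taken as fold over statistic; it is the SE of their model, not a spread between animals. FPKM deposited by the authors were summed per symbol and 1 added before log2; the files hold no counts, so depth is unknown and no count test was run. Symbols with a HIDATA, FAIL or LOWDATA row in a table gave no value there. For E16.5 the deposited statistic was recomputed after subtracting the median log2 fold of 0.478, with two-sided normal p-values and Benjamini-Hochberg adjustment over 19608 tested transcripts at 0.05, which called 1532 transcripts higher and 1854 lower. The authors' q-values called 92.8% of their transcripts higher. For E18.5, with 1 library per group, members past 2-fold were counted. Locus starts count from 0, so 1 was added. The recomputation was tested on simulated data. Alternatives were other pseudocounts, filters, centrings and transcripts. All members and marker genes could be named, with up to 4 genes of each companion list by size of fold at 5 FPKM or more. Members and lists were chosen with earlier results of these data known. Further E18.5 duplicates are not analysed here. Python 3.11.15, pandas 2.3.3, NumPy 2.4.6, SciPy 1.17.1 and matplotlib 3.10.9 were used.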

Additional observations from a re-analysis of the deposited data

Results flagged for a closer look

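Among the collagens with at least 1 FPKM in both E18.5 tissues, 7 lay on opposite sides of the median symbol in mutant dermis and mutant epidermis and were past 2-fold in at least 1 of them. With 1 library per group the difference between tissues was not tested, and the 2 tables were normalised separately. The dermal and epidermal libraries of each genotype also had different sample numbers. Centred log2 folds were 0.93 in dermis and -1.84 in epidermis for Col6a1, and 0.39 in dermis and -2.01 in epidermis for Col6a2. Col5a1 had 0.51 in dermis and -1.55 in epidermis, Col5a2 had 0.61 in dermis and -1.66 in epidermis, and Col12a1 had 1.08 in dermis and -0.91 in epidermis. The dermal value of Col12a1 was under 2-fold when centred within GC deciles (0.66) and with a pseudocount of 5 (0.97). Col4a1 lay at 0.01 in dermis, on the median, and at -1.52 in epidermis. Col11a2 lay the other way round, with -0.70 in dermis, a sign that turned to 0.17 when centred within GC deciles, and 1.03 in epidermis.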

How the results depend on the processing

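For E16.5 skin, 17 collagen genes were higher and 0 lower by the authors' deposited q-values, against 2 and 5 after recentring. The transcript with the highest FPKM alone gave 2 and 5, an adjusted p under 0.01 gave 2 and 4, and centring within GC deciles gave 2 and 2. The member median, -0.10, was 0.32 without centring and between -0.17 and -0.03 otherwise. Without centring the log2 folds of Col18a1 (0.19) and Col23a1 (0.03) turned positive, as subtracting no median implies. In dermis, 2 members were past 2-fold higher and 1 lower. The counts were 0 higher with a pseudocount of 5, 3 lower with a pseudocount of 0.1, 4 higher without centring, and 5 higher and 0 lower within GC deciles. The dermal median, -0.25, was -0.27 with a pseudocount of 0.1, -0.14 with a pseudocount of 5, -0.13 without centring and -0.26 centred on symbols of at least 5 FPKM. It was -0.14 for the transcript with the highest FPKM, -0.11 without a filter on low values and 0.38 within GC deciles, so its sign depends on the centring. In epidermis, 11 members were past 2-fold lower and 2 higher. The count of lower members was 18 with a pseudocount of 0.1 and 5 with a pseudocount of 5. The count of higher members was 0 with a pseudocount of 5 and 1 without centring, centred on symbols of at least 5 FPKM, or within GC deciles. The epidermal median, -0.87, was -1.80 and -0.28 with pseudocounts of 0.1 and 5, -1.05 without centring, -0.98 centred on symbols of at least 5 FPKM, -0.87 for the transcript with the highest FPKM, -0.44 without a filter and -0.96 within GC deciles. The cause of these shifts was not tested. Leaving out a replicate could not be done, since the E16.5 columns pool 2 libraries and E18.5 groups hold 1. No paired analysis was possible because no column holds a single E16.5 library.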
